A study of Mus musculus with 2 samples.

Results

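Mir203, Mir205 and Mir31 are the mouse genes of miR-203, miR-205 and miR-31, microRNAs known from stratified squamous epithelium, the layered lining of skin, oesophagus and the forestomach of rodents. They were chosen by name, but with earlier results of these data known. The 1973 miRNA genes listed for each library were searched for the Ensembl identifiers that carry these symbols. All 3 were found, ENSMUSG00000065574, ENSMUSG00000065533 and ENSMUSG00000065408. Whole stomachs of healthy B6NCrl mouse embryos at embryonic day 15.5, male and female mixed, were pooled, 78 embryos in replicate 1 and 62 in replicate 2. RNA under 30 nt was sequenced. Both pools belong to 1 group with no genotype, treatment or second age, so the questions are how high the genes stand within the tissue and how far the pools differ.

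A mature miRNA is cut from a hairpin and guides a silencing complex to messenger RNAs that pair with its seed, bases 2 to 8 from the 5′ end. In mouse skin miR-203 is known to rise as basal cells leave the cell cycle and differentiate, and it represses p63, the transcription factor that maintains the basal layer of stratified epithelia. miR-205 is abundant in basal cells and, like the miR-200 family, represses Zeb1 and Zeb2, which drive epithelial cells towards a mesenchymal state. miR-31 is known from proliferating and wounded keratinocytes and from the hair follicle. The mouse forestomach carries squamous epithelium and the hind stomach glandular epithelium, and a whole stomach holds both regions. How far either epithelium had formed in these embryos was not measured. In bulk RNA, fewer cells of a type and less RNA per cell cannot be told apart. The dissected region cannot be told apart either: no gene measured here separates forestomach from oesophagus or skin.

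The mature sequences show which molecules the counts can hold. They are from RefSeq on GRCm38.p6, which is the mm10 build, and all 3 genes were matched by symbol. Capitals mark the seed.
miR-203-3p: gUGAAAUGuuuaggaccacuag
miR-203-5p: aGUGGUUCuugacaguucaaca
miR-205-5p: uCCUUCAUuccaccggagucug
miR-205-3p: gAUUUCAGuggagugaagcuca
miR-31-5p: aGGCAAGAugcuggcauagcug
miR-31-3p: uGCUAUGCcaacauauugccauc
The known dominant arms are miR-203-3p, miR-205-5p and miR-31-5p, and the deposited counts do not separate the arms. None of these seeds was shared with any other of the 1738 mature entries of the table used here, so the 3 genes do not form a seed family with each other or with another entry. The seeds of miR-203-3p and miR-205-5p differed at 7 of 7 positions, as did those of miR-205-5p and miR-31-5p, and the seeds of miR-203-3p and miR-31-5p differed at 4. The longest run that a dominant arm shared with another gene's hairpin was 10 bases for miR-203-3p and 9 bases each for miR-205-5p and miR-31-5p. The tables hold multi-mapping reads apart from the gene counts, and none of the 3 genes had a near-identical copy among the hairpins compared.

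The genes lie on different chromosomes of GRCm38, outside any group of neighbouring miRNA genes. Mir203 occupies chromosome 12, 112130880 to 112130955 on the plus strand, and overlaps no other gene of the GENCODE annotation used here. It starts 3321 bases beyond the end of Aspg, an asparaginase gene on the same strand. Mir205 occupies chromosome 1, 193507463 to 193507530 on the minus strand, within an exon of the long noncoding RNA gene 4631405K08Rik. Mir31 occupies chromosome 4, 88910557 to 88910662 on the minus strand, within an exon of the long noncoding RNA gene AL805899.1. The nearest other listed miRNA gene was 21558 bases from Mir203 (Mir3073a), 1314471 from Mir205 (Mir3962) and 788432 from Mir31 (Mir491).

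The library total used for scaling, the sum of sense counts over the listed genes, was 5988677 for replicate 1 and 6675498 for replicate 2. At these depths a count of 0 allowed up to 0.501 CPM (sense counts scaled to the same total in each library) in replicate 1 and 0.449 CPM in replicate 2. Genes with at least 1 sense count numbered 664 and 663. Intervals given here cover counting error only, not the spread between pools. They treat reads as independent molecules, which reads are not, so they may be too narrow.

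Mir203 and Mir205 were abundant at nearly equal levels, and Mir31 was lower by more than a factor of 10. Mir203, the differentiation-linked gene, had 55358 counts in replicate 1 and 40267 in replicate 2. These made 9244 CPM in replicate 1, with a 95% Wilson interval of 9167 to 9321, and 6032 CPM in replicate 2, with one of 5974 to 6091, a mean of 7638 ± 2271 CPM (SD, n = 2). Replicate 1 was the higher pool, and the intervals of the pools did not overlap.

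Mir205, the basal-layer gene, had 47654 counts in replicate 1 and 38544 in replicate 2. These made 7957 CPM in replicate 1 (7887 to 8029) and 5774 CPM in replicate 2 (5717 to 5832), a mean of 6866 ± 1544 CPM (SD, n = 2). Its pools stood in the same order as those of Mir203, and the ranges of the 2 genes over the pools overlapped.

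Mir31, the gene linked to proliferating and wounded epithelium, had 3208 counts in replicate 1 and 3116 in replicate 2. These made 536 CPM in replicate 1 (517 to 555) and 467 CPM in replicate 2 (451 to 483), a mean of 501 ± 48.7 CPM (SD, n = 2). Both of its values lay far below the lowest value of Mir203 or Mir205. The SD over the pools was 29.7% of the mean for Mir203, 22.5% for Mir205 and 9.72% for Mir31.

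**Figure D1:**
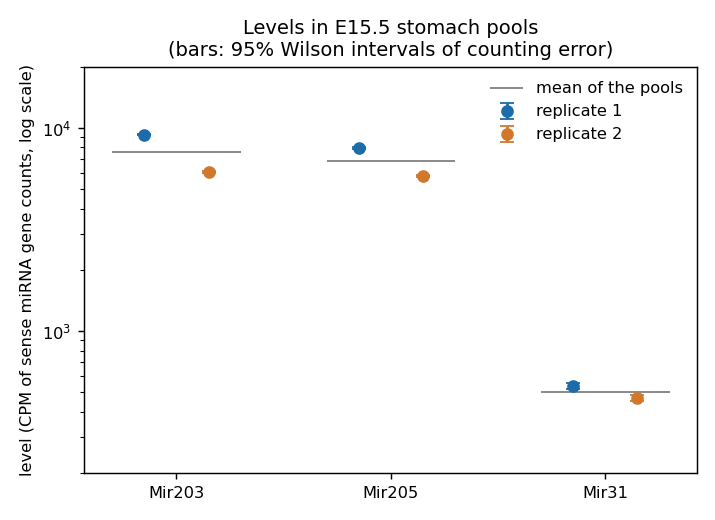
Level of Mir203, Mir205 and Mir31 in CPM on a log axis, 1 point per pool with its 95% Wilson interval and a line at the mean. Mir203 (9244 and 6032 CPM in replicates 1 and 2) and Mir205 (7957 and 5774 CPM) overlap, and Mir31 (536 and 467 CPM) lies well below.

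Together the 3 genes held 1.77% of sense counts in replicate 1, with a 95% Wilson interval of 1.76 to 1.78%, and 1.23% in replicate 2, with one of 1.22 to 1.24%, a mean of 1.50% ± 0.386 (SD, n = 2). Mir203 made up 52.1% of this sum in replicate 1 and 49.1% in replicate 2. Mir205 made up 44.9% and 47.0%, and Mir31 3.02% and 3.80%. The summed signal was therefore almost wholly that of Mir203 and Mir205.

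By rank among all listed genes, Mir203 stood 22nd in replicate 1 and 32nd in replicate 2. Mir205 stood 28th in replicate 1 and 34th in replicate 2, and Mir31 122nd in both. Of the genes with a count, 96.7% in replicate 1 and 95.2% in replicate 2 lay below Mir203. For Mir31 the shares were 81.6% in both. These ranks were close to those of neighbours: 12 other genes had ranges over the pools that overlapped the range of Mir203, 9 that of Mir205 and 10 that of Mir31. By mean CPM, Mir203 followed Mir20a, of a proliferation-linked miRNA cluster, at 7788 ± 1012 CPM, and preceded Mir487b at 7490 ± 5.02 CPM. Mir205 stood between Mir214, a mesenchymal miRNA, at 7072 ± 173 CPM and Mir369 at 6086 ± 788 CPM (SD, n = 2 for each). Mir31 stood between Mir669o at 509 ± 32.6 CPM and Mir494 at 459 ± 78.2 CPM. In each of these 6 pairs the difference of the means was smaller than the SD of the member, so the order among neighbours did not hold beyond the spread of the pools.

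**Figure D2:**
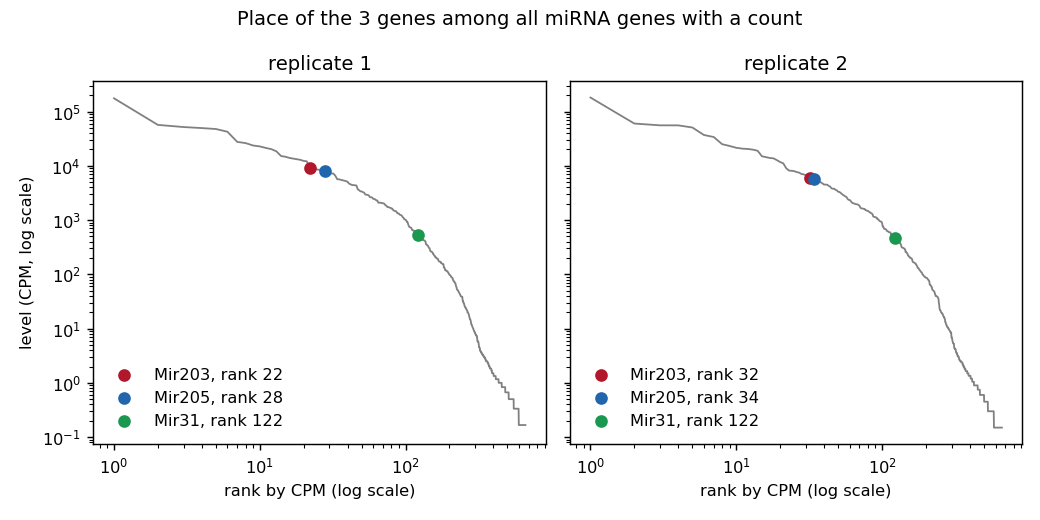
Level in CPM against rank, both on log axes, for every miRNA gene with a sense count in replicate 1 (left) and replicate 2 (right), with the 3 genes marked. Mir203 and Mir205 lie on the upper shoulder of the curve at ranks 22 and 28 in replicate 1 and 32 and 34 in replicate 2, and Mir31 lies at rank 122 in both.

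The profile over the pools can also be compared gene by gene, by the Euclidean distance of log2(CPM + 1) over the 2 libraries. With only 2 libraries this measures level and little else. The gene most like Mir203 among all listed genes was Mir205, at a distance of 0.23, followed by Mir20a (0.26) and Mir200b (0.29), a member of the miR-200 family. The genes most like Mir205 were Mir203 (0.23), Mir200b (0.23) and Mir214 (0.30). The genes most like Mir31 were Mir125b-2 (0.21), Mir494 (0.22) and Mir669o (0.24), so Mir31 stood nearer to these genes than to Mir203 or Mir205.

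All 3 genes were higher in replicate 1, by amounts that fell in the order Mir203, Mir205, Mir31. Each pool is a single library, so these ratios have no replicate check and compare libraries, not conditions. The log2 ratio of replicate 1 over replicate 2 (CPM + 1) was 0.62 for Mir203 (95% exact Clopper-Pearson interval 0.60 to 0.63), 0.46 for Mir205 (0.44 to 0.48) and 0.20 for Mir31 (0.13 to 0.27). As folds these were 1.53, 1.38 and 1.15. By a two-sided exact binomial test adjusted with Benjamini-Hochberg over all 466 genes with at least 10 summed counts, Mir31 had an adjusted p of 1.7e-07. The adjusted p of Mir203 and Mir205 had a base-10 logarithm of -936 and -479. At adjusted p under 0.05, 3 of 3 members were higher in replicate 1, where 33.3% of all tested genes were so called. With an added fold limit, a log2 ratio at or beyond 1 or -1, 0 of 3 members were called, where 5.79% of tested genes were called in either direction.

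Counting error is small at these depths, and the spread between pools is the larger part. edgeR's common dispersion over the same genes gave a biological coefficient of variation of 21.9% between the pools. edgeR's exact test with that dispersion called 0 of 3 members, where 0.858% of tested genes were called. Its adjusted p was 1 for each member, and its unadjusted p, under 0.05 for 29 of the tested genes, was 0.17 for Mir203, 0.30 for Mir205 and 0.66 for Mir31. The dispersion was estimated from the same 2 libraries so any true difference between the pools is part of it.

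The ratios were within the range of other genes. The median log2 ratio over tested genes was 0.11, against a median of 0.46 over the 3 members, and the median size was 0.27. A ratio at least as high as that of Mir203 was seen in 62 of 466 tested genes (13.3%), Mir203 included. For Mir205 the number was 90 (19.3%) and for Mir31 198 (42.5%), so Mir31 lay near the middle of all genes. Among the 99 genes with a mean of at least 1000 CPM, 4 had a ratio at least as high as Mir203 and 7 at least as high as Mir205, each count with the gene itself. With edgeR's TMM factors in place of library totals the median log2 ratio of all genes moved by -0.10, and the ratios became 0.49 for Mir203, 0.33 for Mir205 and 0.070 for Mir31, whose adjusted p by the same exact binomial test was 0.11. DESeq2 size factors were 1 for both libraries, so here and below that setting compared raw counts, though replicate 2 had the larger total. With them the median moved by -0.11 and the ratios became 0.46, 0.31 and 0.042. The adjusted p of Mir31 by the exact binomial test was then 0.39.

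**Figure D3:**
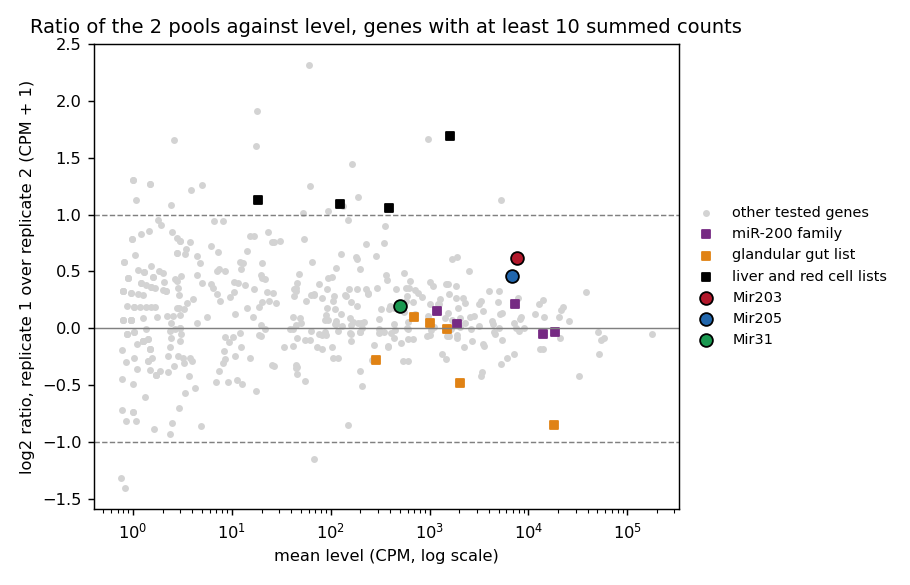
Log2 ratio of replicate 1 over replicate 2 (CPM + 1) against mean level in CPM (log axis) for the 466 genes tested, with the 3 genes as outlined circles, marker lists as squares and dashed lines at the limit of 1 in size. Mir203 (0.62) and Mir205 (0.46) lie above most genes of like level but inside the dashed lines, and Mir31 (0.20) lies within the cloud.

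Ratios taken within a library do not depend on the library total. Mir203 exceeded Mir205 by a fold of 1.16 in replicate 1 and 1.04 in replicate 2. Mir203 exceeded Mir31 by a fold of 17.3 in replicate 1 and 12.9 in replicate 2, and Mir205 exceeded Mir31 by 14.9 and 12.4. The log2 ratio of Mir203 over Mir205 was thus higher by 0.15 in replicate 1 (95% exact interval 0.13 to 0.18). That of Mir203 over Mir31 was higher by 0.42 (0.34 to 0.49) and that of Mir205 over Mir31 by 0.26 (0.19 to 0.34). The genes did not move by 1 common factor between the pools beyond counting error, and Mir31 differed least. No replicate of either pool exists to set this against the spread of repeated libraries.

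The summed counts of the 3 genes were lower than those of the miR-200 family in both pools, and the ratio of these separate sums differed between the pools. The miR-200 family (Mir200a, Mir200b, Mir200c, Mir141 and Mir429), known from epithelia of every kind, held 4.35% of counts in replicate 1 and 4.32% in replicate 2. The summed counts of Mir203, Mir205 and Mir31 came to 40.8% of that sum in replicate 1 and 28.4% in replicate 2, a fold of 1.43 between the pools. By gene, Mir203 alone came to 21.2% of the miR-200 sum in replicate 1 and 14.0% in replicate 2, Mir205 to 18.3% and 13.4%, and Mir31 to 1.23% and 1.08%. Of all 466 tested genes, 155 were higher and 61 lower in replicate 1 at adjusted p under 0.05 by the exact binomial test, the background for each list. Of the 5 miR-200 genes, 2 were higher and 2 lower in replicate 1 at adjusted p under 0.05, and their median log2 ratio was 0.04. The median was -0.089 with TMM and -0.12 with DESeq2 size factors, where that over all tested genes was 0.013 and 0.

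Against the glandular gut genes the pools differed more. This list (Mir375, Mir215, Mir192, Mir148a, Mir194-1 and Mir194-2) held 1.81% of counts in replicate 1 and 2.91% in replicate 2. The 3 squamous genes came to 0.981 of the glandular sum in replicate 1 and 0.422 in replicate 2, a fold of 2.32. Most of this sum is Mir375, also a miRNA of endocrine cells, at 12876 CPM in replicate 1 and 23221 CPM in replicate 2. Without Mir375 the squamous genes came to 3.40 and 2.09 times the rest of the list, a fold of 1.63, so squamous over glandular was higher in replicate 1 with or without it, while which of the lists was larger turned round. Of the 6 glandular genes, 1 was higher and 3 lower in replicate 1 at adjusted p under 0.05, against 155 and 61 of all 466 tested genes. The fold limit was passed by 0 of the 6, against 5.79% of tested genes. The median log2 ratio of the 6 was -0.14 by library totals, -0.27 with TMM and -0.30 with DESeq2 size factors. Over all tested genes the median was 0.11, 0.013 and 0 in the same order. Mir194-1 and Mir194-2 give the same mature miRNA, and reads shared between them may be missing.

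Against muscle and mesenchyme genes the 3 genes came to 9.40% of the sum in replicate 1 and 6.37% in replicate 2. That sum is led by Mir143, the smooth muscle miRNA, at 175503 CPM in replicate 1 and 181344 CPM in replicate 2. Without Mir143 the 3 genes came to 1.35 times the sum of Mir145a, Mir214, Mir140 and the 3 listed miR-199 genes in replicate 1 and 1.08 times it in replicate 2. Mir199a-1 and Mir199a-2, at means of 10.4 and 119 CPM, exist as copies whose common reads may be uncounted. The sum without Mir143 may therefore be too low. Over the 7 genes of this list the log2 ratio of the sum was -0.03 while the median was 0.30, since Mir143 outweighs the others. The within-library ratios were higher in replicate 1 against all 3 lists, with and without each list's most abundant gene. These settings share 1 numerator, the summed counts of the 3 genes, whose log2 ratio between the pools was 0.53. Their common direction is therefore not independent support.

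**Figure D4:**
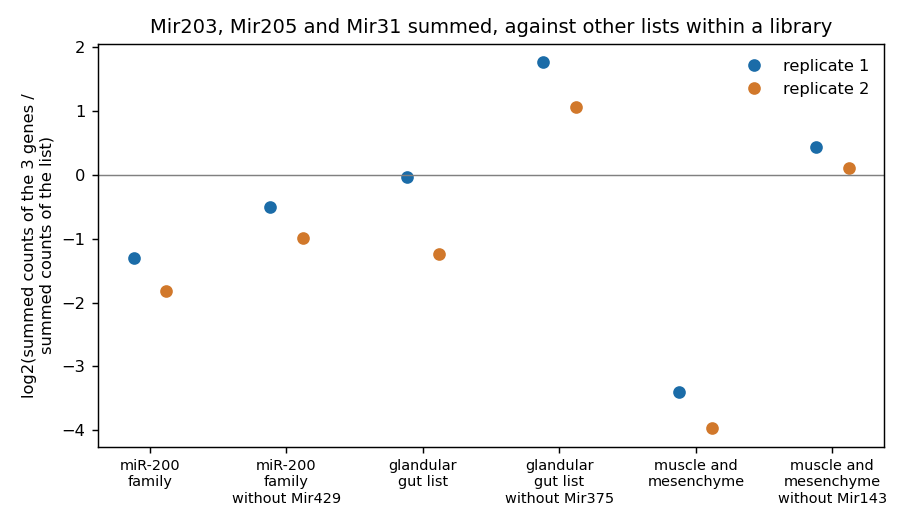
Log2 of the summed counts of Mir203, Mir205 and Mir31 over the summed counts of each list, per pool, for the whole list and without its most abundant gene. The replicate 1 point lies above the replicate 2 point in all 6 settings, and the widest gap is against the whole glandular gut list (-0.03 and -1.24).

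Other genes known from skin or cornea were each lower than Mir203 and Mir205, and their sum differed less between the pools, with a log2 ratio of 0.28. The list held 0.374% of counts in replicate 1 and 0.308% in replicate 2, led by Mir27b at 1853 ± 336 CPM (SD, n = 2). Next came Mir125b-1 at 594 ± 0.523 CPM, Mir125b-2 at 553 ± 38.0 CPM and Mir24-2 at 227 ± 38.8 CPM. Mir125b and Mir24 exist as copies, whose common reads may be uncounted. Mir184, known from corneal epithelium, stood at 7.15 ± 1.22 CPM, and Mir34a at 180 ± 54.8 CPM. The log2 ratio of Mir34a between the pools was 0.63, close to the 0.62 of Mir203 and above that of Mir205. Of the 6 genes, 4 were higher in replicate 1 at adjusted p under 0.05, where 33.3% of all tested genes were. None of the 6 was lower and none passed the fold limit, with a median log2 ratio of 0.33. With the other scalings the median was 0.21 (TMM) and 0.18 (DESeq2 size factors), against 0.013 and 0 over all tested genes. The sensory epithelium cluster of Mir182, Mir183 and Mir96 held 0.744% of counts in replicate 1 and 0.694% in replicate 2, with 2 of 3 higher in replicate 1. That direction depended on scaling: the log2 ratio of the sum was 0.10 by library totals and -0.029 with TMM. With DESeq2 size factors, 1 for both libraries, it was -0.057, the ratio of the unscaled counts.

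Markers of other tissues also differed between the pools. Mir122, the liver miRNA, stood at 2445 CPM in replicate 1 and 757 CPM in replicate 2, a log2 ratio of 1.69. The red cell genes Mir451a, Mir144 and Mir486 held 0.0727% of counts in replicate 1 and 0.0345% in replicate 2. With the fold limit 3 of 3 were called higher in replicate 1, where 24 of all 466 tested genes were so called. With TMM and DESeq2 size factors the median log2 ratio of the red cell genes was 0.97 and 0.94, against 0.013 and 0 over all tested genes. The striated muscle list, which covers the muscle of the neighbouring oesophagus and body wall, ran the other way in sum, with 0.0192% in replicate 1 and 0.0259% in replicate 2. Of its 8 genes 7 were listed and 4 were tested, Mir206, Mir208b, Mir499 and Mir133b, of which 2 were higher and 1, Mir206, lower in replicate 1 at adjusted p under 0.05. Their median log2 ratio was 0.32, opposite in sign to that of the sum (-0.43), which Mir206 leads. With TMM and DESeq2 size factors this median was 0.21 and 0.19, and the log2 ratio of the sum was -0.56 and -0.59. Mir133a-1 and Mir133a-2 were at 0 in both libraries, but their reads may be lost to each other as copies. Liver and red cell genes were thus higher in the same pool as Mir203, Mir205 and Mir31, and their part in the difference of those genes was not tested.

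**Figure D5:**
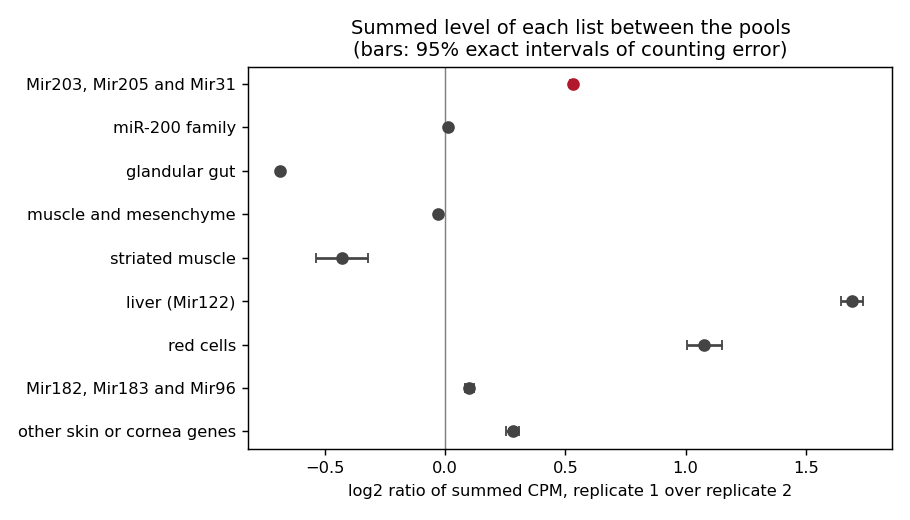
Log2 ratio of the summed CPM of each list, replicate 1 over replicate 2, with 95% exact intervals of counting error. The 3 genes together stand at 0.53, the miR-200 family at 0.01, the glandular gut list at -0.69 and Mir122 at 1.69.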

How the data were processed

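MicroRNA-seq libraries of 2 stomach pools were analysed. The authors deposited 1 table of raw read counts per library, on mm10 with GENCODE M4, per the text files deposited beside them. The alignment, trimming and counting software is not named in them or in the labels (not given in the sources used here). With no header in the tables, the third column was taken as sense counts because it holds nearly all counts of known genes. Lines that name no gene stayed out of totals: multi-mapping reads were 25.5% and 27.0%, unmapped reads 18.0% and 16.2% and reads outside miRNA genes 2.92% and 2.26% in replicates 1 and 2. Symbols and coordinates are from GENCODE M21 on the same assembly, and 1894 of 1973 identifiers matched.

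Sense counts were divided by their sum per library and given as CPM. Genes with at least 10 summed counts were compared by an exact binomial test, two-sided and conditional on the summed count, with p adjusted by Benjamini-Hochberg. Log2 ratios used 1 CPM as pseudocount. The labels name biological replicates, each a pool of embryos. With 1 library a side, edgeR's quasi-likelihood test has no residual degrees of freedom. An alternative was edgeR's exact test with an intercept-only common dispersion, as were DESeq2 size factors. These factors were 1 for both libraries and so left the counts unscaled. The exact tests were tested on simulated data. Alternatives covered scaling, total, strand, pseudocount, count minimum, fold limit, lists and leaving out each replicate; the other scalings of the marker lists were chosen after seeing the data. The genes and lists were chosen with earlier results of these data known. Named were the 3 genes, up to 4 top genes per marker list, the 3 genes nearest to each by level, the neighbours in rank, genes sharing a seed and overlapping genes. Further list members were named after their values were seen. Versions were edgeR 4.0.16 and DESeq2 1.42.0 under R 4.3.3, and scipy 1.17.1, numpy 2.4.6, matplotlib 3.10.9 and pandas 2.3.3 under Python 3.11.15.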

Additional observations from a re-analysis of the deposited data

Results flagged for a closer look

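Counts on the strand opposite to Mir203, which the comparisons above do not use, were 28 in replicate 1 and 63 in replicate 2, above the 3 counts that a count of 0 allows. They came to 0.0506% of all counts at the gene in replicate 1, with a 95% Wilson interval of 0.0350 to 0.0731%, and 0.156% in replicate 2, with one of 0.122 to 0.200%. The log2 ratio of replicate 1 over replicate 2 was -1.01 (95% exact interval -1.71 to -0.35), opposite in sign to that of the sense counts. RefSeq places miR-203b on that strand, in the gene Gm51289, which the tables do not list.
miR-203b-5p: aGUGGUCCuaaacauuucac
miR-203b-3p: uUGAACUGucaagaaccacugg
Capitals mark the seed. miR-203b-5p is complementary to miR-203-3p over 20 bases, and miR-203b-3p to miR-203-5p over 20 bases. Which RNA gave these counts was not tested. Of the 103 genes with at least 10000 summed sense counts, 6 had over 3 opposite-strand counts in both libraries, and 2 had a higher opposite-strand share than Mir203. Mir205 and Mir31 had 0 opposite-strand counts in both libraries, which allows shares of up to 0.00630% and 0.00778% at Mir205 in replicates 1 and 2, and of 0.0935% and 0.0963% at Mir31.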

How the results depend on the processing

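Of 82 values under alternatives, 64 stayed on the same side of the threshold or within the spread of the pools, and the others follow. No ratio between the pools changed sign among these, while the untested log2 ratios over the glandular and the muscle and mesenchyme lists did. With all reads of the table as total, levels were 3988 CPM for Mir203, 3587 CPM for Mir205 and 262 CPM for Mir31 and the joint share 0.784%, by construction. With both strands counted the mean rank of Mir31 over the libraries was 130.5 in place of 122, since its own count has no opposite-strand part. edgeR's exact test gave log2 ratios of 0.62, 0.46 and 0.20 for Mir203, Mir205 and Mir31, and its adjusted p was no longer under 0.05. None of the members had passed the fold limit. The ratio of Mir31 was 0.070 with TMM and 0.042 with DESeq2 size factors, which left the counts unscaled. The 27 genes called between the pools, 24 higher and 3 lower in replicate 1, became 16 with all reads as total, 13 with pseudocount 5, 16 with a minimum of 100, 4 by edgeR's exact test and 216 without the fold limit. The split was 18 higher and 4 lower with TMM and 16 and 6 with DESeq2 size factors. Without each list's most abundant gene, the mean log2 ratio of the 3 genes over the miR-200 family went from -1.55 to -0.74, over the glandular list from -0.64 to 1.42 and over muscle and mesenchyme from -3.69 to 0.27. No paired analysis was possible because there is no second group to pair. Depth limits none of the 3 genes, and the number of pools limits every ratio.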

Other observations

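Few abundant genes shared the direction and size of the difference of Mir203 and Mir205 between the pools. Of the 99 genes with a mean of at least 1000 CPM, 8 had a log2 ratio of replicate 1 over replicate 2 of at least 0.4, a limit chosen after the values were seen. Beside Mir203 and Mir205 these were Mir122 (1.69), Mir10b, a Hox-embedded gene (1.13), Mir484 (0.63), Mir434, of the imprinted Dlk1-Dio3 region (0.61), Mir145a, a smooth muscle gene (0.51) and Mir199b, a mesenchymal gene (0.41). Mir484 had 13758 counts in replicate 1 and 9910 in replicate 2, and Mir434 had 12215 and 8932. Mir145a differed in this way while Mir143, its cluster partner, had a log2 ratio of -0.05, at 175503 CPM in replicate 1 and 181344 CPM in replicate 2.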
